A study of Homo sapiens with 6 samples.

Results

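The genes described here are 9 that make, carry the signal of, or break down prostaglandins: PLA2G4A, PTGS1, PTGS2, PTGES, PTGES2, PTGES3, PTGER2, PTGER4 and HPGD. They were chosen by name, as the entries of the deposited count table with these symbols, and all 9 were found among its 21776 genes. RNA sequencing was done on SCC25, an established cell line from an oral squamous cell carcinoma, a cancer of the HNSCC group (squamous cell carcinomas of the head and neck). The wild-type cells were kept for 12 h either under hypoxic conditions (1% O2 and 5% CO2, balanced with nitrogen, in a tri-gas incubator) or under normoxic conditions (5% CO2 in air), with 3 libraries per condition. The total counts were 30186813, 36076088 and 32272716 in hypoxia libraries 1 to 3 and 37278703, 29637189 and 29981208 in normoxia libraries 1 to 3. The line is a single tumor-derived line, and nothing in the sources says that the libraries came from separate cultures, so p-values measure only the spread between these libraries.

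Prostaglandins are short-lived lipid messengers. Cytosolic phospholipase A2 (PLA2G4A) frees arachidonic acid from membranes, the cyclooxygenases PTGS1 (COX-1) and PTGS2 (COX-2) turn it into prostaglandin H2, and the prostaglandin E synthases PTGES, PTGES2 and PTGES3 turn that into prostaglandin E2 (PGE2). PGE2 acts on neighbouring cells through the receptors PTGER2 (EP2) and PTGER4 (EP4), which raise cyclic AMP, and HPGD (15-hydroxyprostaglandin dehydrogenase) inactivates it. In textbook accounts PTGS1 is the constitutive and PTGS2 the inducible cyclooxygenase, and PTGS2 and PGE2 are known in squamous carcinomas for their part in inflammation and immune suppression.

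The cyclooxygenase genes PTGS1 and PTGS2, which act at the same step, differed widely in response. The 250 bases before their transcription starts are therefore shown from RefSeq (GRCh38.p14), 5′ to 3′ on the strand of the gene. PTGS1 has 2 annotated starts, after chr9:122370283-122370532 and after chr9:122375052-122375301, both on the plus strand. PTGS2 has 1, after chr1:186680424-186680673 on the minus strand. Capitals mark ACGTG or GCGTG, the core letters bound by hypoxia-inducible factors, on either strand, and TATAA on the strand of the gene.
PTGS1 start 1: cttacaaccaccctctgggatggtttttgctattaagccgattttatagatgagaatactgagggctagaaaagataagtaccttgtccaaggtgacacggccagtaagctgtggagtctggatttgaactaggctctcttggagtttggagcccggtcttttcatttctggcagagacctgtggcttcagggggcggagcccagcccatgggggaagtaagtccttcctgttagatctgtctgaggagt
PTGS1 start 2: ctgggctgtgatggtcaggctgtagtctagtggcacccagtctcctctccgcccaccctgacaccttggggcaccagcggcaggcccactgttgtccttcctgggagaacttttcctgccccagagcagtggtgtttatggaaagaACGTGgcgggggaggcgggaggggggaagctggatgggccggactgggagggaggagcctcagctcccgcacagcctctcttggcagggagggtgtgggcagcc
PTGS2 start 1: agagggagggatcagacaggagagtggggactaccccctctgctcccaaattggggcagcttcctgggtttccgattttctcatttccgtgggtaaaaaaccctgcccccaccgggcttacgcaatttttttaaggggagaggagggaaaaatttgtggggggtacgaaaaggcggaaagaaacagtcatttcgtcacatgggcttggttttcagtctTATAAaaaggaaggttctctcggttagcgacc

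In the full windows of 300 bases (250 before and 50 after the start), the first start of PTGS1 held neither core motif and the second held ACGTG at bases -104 to -100. The window of PTGS2 held ACGTG on the opposite strand, at bases 34 to 38 after the start, and TATAA at -32 to -28. The PTGES window held GCGTG at -82 to -78. Windows of PTGES2, PTGES3, PTGER2, PTGER4 and HPGD also held at least 1 core motif, and that of PLA2G4A held none. Such matches are common, since 48.4% of 35116 promoter windows of this length held ACGTG or GCGTG on either strand (21.4% held ACGTG, 36.5% GCGTG and 20.4% TATAA). No binding was measured here.

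The labels were checked on 15 genes known to respond to low oxygen, and all 15 were called higher under hypoxia, against 39.2% of all genes tested. Carbonic anhydrase CA9 measured 262, 277 and 293 CPM (counts scaled to a common library total by TMM, edgeR's trimmed mean of M-values) in the hypoxia libraries and 32.2, 27.3 and 67.7 in the normoxia libraries, a log2-fold change of 2.71 (SE 0.21). VEGFA, the angiogenic growth factor, rose by 2.80 (SE 0.07) and the stress-response gene NDRG1 by 5.40 (SE 0.30) on the log2 scale. Normoxia library 3 stood apart in these genes, with NDRG1 at 409 CPM against 163 and 140 in the other normoxia libraries. It also differed most from its replicates, with a chi-square per gene of 10.5 and 11.5 against 7.16 between the other normoxia pair. Values without this library are given where it decides a call.

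The cell type was described by squamous epithelial markers, which cannot tell SCC25 from another squamous line. E-cadherin (CDH1) had the highest mean over all libraries (it led under hypoxia, and EPCAM, DSP and SFN were above it in CPM under normoxia), keratin KRT5 stood at 111 ± 5.49 CPM under hypoxia and 126 ± 9.90 under normoxia (SD, n = 3), and the basal keratin KRT14 was at 0 counts except for 1 count in normoxia library 2. Of 8 epithelial markers tested 3 were higher, 4 lower and 1 not called, so 87.5% were called against 77.8% of all genes tested. The stress keratin KRT6A differed most, with 18, 28 and 49 counts under hypoxia against 695, 537 and 356 (log2-fold change -4.12, SE 0.25). Markers of other cell types summed to far less than the epithelial markers, which came to between 1187.2 and 1379.5 CPM per library. CD68, at 31.0 CPM under hypoxia and 33.1 under normoxia, nevertheless stood above PTGS2 (22.2 and 14.5). The 7 fibroblast markers summed to 22.1, 18.7 and 17.3 CPM under hypoxia and 4.03, 3.18 and 5.64 under normoxia, nearly all of it from COL1A1, while the fibroblast collagen COL3A1 had 2, 0 and 1 counts and then 0 in each normoxia library. The 7 leukocyte markers found summed to 40.1, 44.5 and 46.0 CPM and to 35.1, 33.7 and 37.2 CPM, led by the lysosomal CD68, and the pan-leukocyte gene PTPRC had 0, 0 and 2 counts and then 0 in each normoxia library. The 5 endothelial markers summed to between 1.32 and 1.70 CPM under hypoxia and between 0.296 and 0.744 CPM under normoxia, led by the endothelial cadherin CDH5. Markers called higher under hypoxia were COL1A1 (log2-fold change 2.26), the monocyte-associated CSF1R (2.49) and CD14 (2.45), and CDH5 (1.14, edgeR adjusted p = 0.025), and none was called lower. Of all genes tested, 39.2% were called higher and 38.5% lower. The call of CDH5 was lost without hypoxia library 1 (adjusted p = 0.079), hypoxia library 3 (0.0781), normoxia library 1 (0.136) or normoxia library 2 (0.0919), all by edgeR. The part of these markers in the results below was not tested.

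Of the 9 prostaglandin genes, 7 passed the filter on low counts and all 7 were called, 3 higher (PTGS1, PTGS2 and PTGES) and 4 lower (PTGES2, PTGES3, PTGER4 and PLA2G4A), at an adjusted p-value under 0.05 by edgeR's quasi-likelihood test. Calls were common in this comparison: 77.8% of the 14255 genes tested were called, 39.2% higher and 38.5% lower, so the number of calls among the prostaglandin genes stands near the background. Their median log2-fold change was -0.38, against 0.02 over all genes tested. In 6 of the 7 the libraries of the 2 conditions did not overlap, as in 80.5% of all genes tested. Only PTGS1 and PTGER4 were called with a log2-fold change beyond 1 in size, which 30.4% of all genes tested reached (19.9% higher and 10.5% lower). PTGER2 and HPGD had too few counts to be tested.

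**Figure D1:**
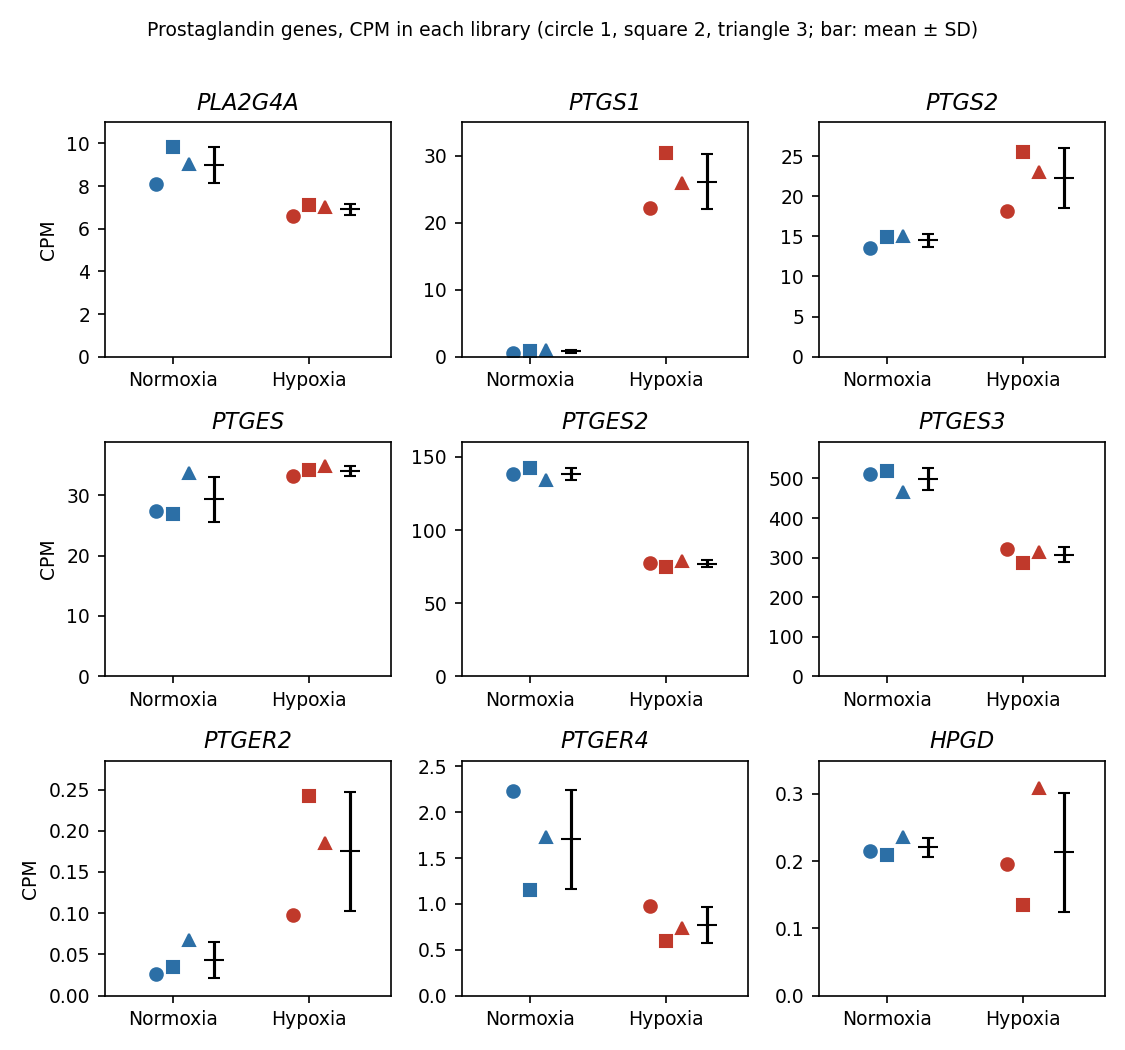
Level of each of the 9 prostaglandin genes in CPM (linear axes starting at 0, a separate scale for each gene) in the 3 normoxia (blue) and 3 hypoxia (red) libraries, with bars for mean ± SD. PTGS1 sits below 1 CPM in every normoxia library and above 22 CPM in every hypoxia library, and the libraries of the 2 conditions overlap for PTGES and HPGD.

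PLA2G4A, the phospholipase that supplies the pathway, fell modestly. The hypoxia libraries held 202, 264 and 227 counts and the normoxia libraries 302, 281 and 267, with CPM from 6.62 to 7.10 and from 8.12 to 9.82. The 2 ranges did not overlap. The log2-fold change was -0.38 (SE 0.13, edgeR adjusted p = 0.0117), a level 1.30-fold lower. Without normoxia library 2, which held the highest value, the change was -0.32 and no longer passed the test (edgeR adjusted p = 0.0506).

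Other genes around the release of arachidonic acid moved in both directions. Of 12 counted, the phospholipase inhibitor annexin A1 among them, 9 were tested, and 5 rose, 2 (PLA2G12A and annexin A1) fell and 2 were not called. The share called was 77.8%, the same as over all genes tested, and the median log2-fold change was 1.07 against 0.02. PLA2G4D, an epidermal member of the same phospholipase family, had 464, 612 and 555 counts under hypoxia and 70, 39 and 65 under normoxia. In CPM it went from 1.81 ± 0.421 to 16.3 ± 0.970 (SD, n = 3), a log2-fold change of 3.16 (SE 0.15, edgeR adjusted p = 5.71e-12). The conditions lay far apart, with every hypoxia library above 15 CPM and every normoxia library below 3.

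The calcium-independent phospholipase PLA2G6 rose from 4.64 ± 1.16 to 21.6 ± 1.61 CPM (log2-fold change 2.22). The lipid-modifying PLAAT3 rose from 36.6 ± 1.48 to 77.0 ± 3.89 CPM (1.07). Secreted PLA2G12A was lower by a small amount (-0.25, SE 0.07). Annexin A1 (ANXA1) was called lower at -0.12 (edgeR adjusted p = 0.0455), and its libraries overlapped. That call was lost without hypoxia library 2 (adjusted p = 0.113), hypoxia library 3 (0.0759), normoxia library 2 (0.104) or normoxia library 3 (0.0518), all by edgeR. It was lost also with DESeq2's size factors (edgeR adjusted p = 0.0594) and with the filter of 10 counts per library, where the change was -0.046 (edgeR adjusted p = 0.433). Secreted phospholipases PLA2G3 and PLA2G10 were not tested, with 7, 4 and 10 and with 6, 11 and 5 counts under hypoxia and 0 in every normoxia library. Against a floor of 3 counts over the group they were at least 6.67-fold and at least 6.98-fold higher, counting error aside.

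PTGS1 showed the largest change of the pathway. It had 676, 1130 and 841 counts in the hypoxia libraries and 20, 23 and 29 in the normoxia libraries. Scaled to the library totals these were 22.1, 30.4 and 25.9 CPM against 0.537, 0.804 and 0.980 CPM. Every hypoxia library was more than 20 CPM above every normoxia library. The log2-fold change was 5.10 (SE 0.18, edgeR adjusted p = 1.66e-13), a level 34.4-fold higher, and 84 of the 14255 genes tested had a larger one. It lay between 4.85 and 5.30 when each library was left out in turn. In bulk RNA, more cells with a transcript and more of it per cell cannot be told apart, here and in the other results.

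PTGS2 rose far less. It had 554, 949 and 747 counts in the hypoxia libraries and 505, 427 and 446 in the normoxia libraries. In CPM the hypoxia libraries went from 18.1 to 25.5 and the normoxia libraries from 13.6 to 15.1. The conditions did not overlap, but hypoxia library 1 lay close to the normoxia libraries. The log2-fold change was 0.62 (SE 0.11, edgeR adjusted p = 7.91e-05), a level 1.54-fold higher, and 4059 tested genes had a larger one. Leaving out 1 library at a time gave 0.50 to 0.74.

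The lowest values of both cyclooxygenases under hypoxia were in library 1 and the highest in library 2. The weight of PTGS2 against PTGS1 was compared per length, from the deposited FPKM (fragments per kilobase of gene, scaled to the library's total count). PTGS2 exceeded PTGS1 by 54.3, 39.9 and 33.1 times in the normoxia libraries and by 1.76, 1.81 and 1.91 times in the hypoxia libraries. The log2 ratio thus dropped by 4.51, with no overlap (exact two-sided permutation, p = 0.1, the smallest that 3 libraries against 3 can give, and 0.1 after adjustment over the 4 ratios tested). Which cyclooxygenase is the more abundant under hypoxia depends on the gene length used. The deposited FPKM of PTGS1 rests on 9700 bases, and its merged GENCODE v29 exons cover 5791 bases. With GENCODE lengths, an alternative added after the data were seen, PTGS2 stood at 0.901, 0.923 and 0.976 times PTGS1 under hypoxia and at 27.8, 20.4 and 16.9 times under normoxia.

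Neighbouring genes of PTGS1 on the chromosome did not move with it. RBM18 (-0.14), MRRF (-0.07) and RC3H2 (-0.10) were not called, except RBM18 without normoxia library 3 (-0.21, edgeR adjusted p = 0.0453), and PDCL was lower by a log2-fold change of -0.34. On chromosome 1, PTGS2 and PLA2G4A lie next to each other with the antisense transcript PACERR between them, which is named for its link to COX-2. PACERR had 22, 21 and 14 counts under hypoxia and 10, 1 and 0 under normoxia. It was called higher with a log2-fold change of 2.30 (SE 0.68, edgeR adjusted p = 0.00532), a value that became 4.75 without normoxia library 1, which held 10 of its 11 normoxia counts. Whether the counting used strand is not given in the sources used here. No GENCODE v29 exon on the opposite strand overlapped the exons of any of the 9 genes.

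Among 11767 genes with a mean log2 CPM of at least 1, those most like PTGS1 over the 6 libraries by Pearson's r of log2 CPM were EZH1, LOC112267991, SHOX2, LINC02940 and TXNIP. Their r was from 0.9995 to 0.9999, and 841 genes exceeded 0.99. The genes most like PTGS2 were RAB25 (0.997), SLC2A13 (0.991), PPDPF, TMEM106B and ROBO1, and only 2 genes exceeded 0.99. The points share 2 conditions and the same libraries, so these values are a description.

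**Figure D2:**
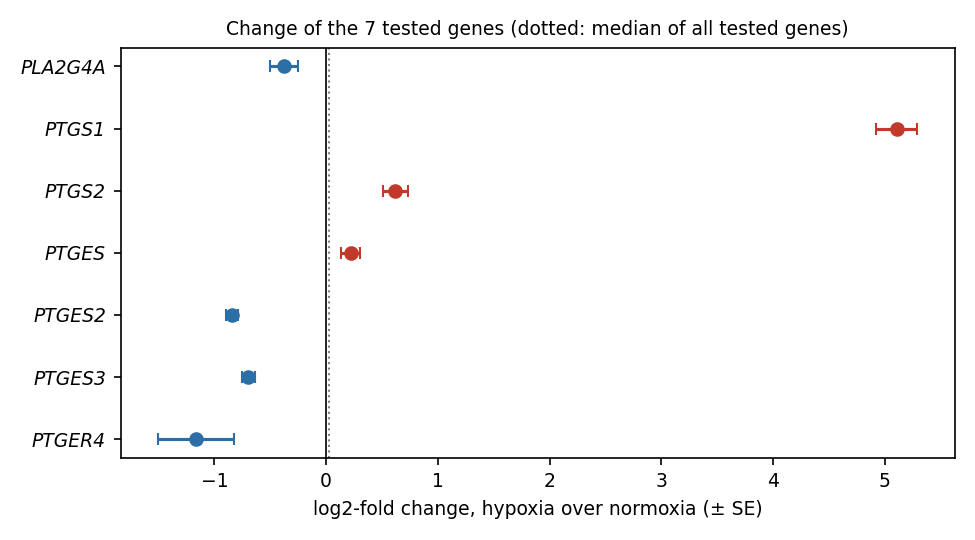
log2-fold change of hypoxia over normoxia for the 7 tested prostaglandin genes, with bars for the standard error of the edgeR fit (red called higher, blue called lower). PTGS1 lies at 5.10 and the other 6 genes between -1.16 and 0.62, and the dotted line is the median of all tested genes, 0.02.

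The 3 genes named as prostaglandin E synthases did not move together. PTGES, also called microsomal PGE synthase 1, is the inducible enzyme that is usually coupled to PTGS2. It had 1013, 1272 and 1130 counts in the hypoxia libraries and 1019, 770 and 995 in the normoxia libraries, or 33.2, 34.2 and 34.8 CPM against 27.4, 26.9 and 33.6 CPM. Normoxia library 3 lay within the hypoxia range, so the conditions overlapped. The log2-fold change was 0.22 (SE 0.08, edgeR adjusted p = 0.0247). The call was lost without hypoxia library 2 (0.21, edgeR adjusted p = 0.0639) and without hypoxia library 3 (0.20, 0.0845). It was lost also without normoxia library 1 (0.16, edgeR adjusted p = 0.147) and without normoxia library 2 (0.15, 0.121). Without normoxia library 3, the one that stood apart, the change was 0.31.

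PTGES2, microsomal PGE synthase 2, fell. It had 2366, 2771 and 2567 counts under hypoxia and 5146, 4079 and 3973 under normoxia, which are 77.5, 74.5 and 79.1 CPM against 138, 143 and 134 CPM. The 2 conditions were widely separated and the libraries of each close together. Its log2-fold change was -0.85 (SE 0.05, edgeR adjusted p = 1.56e-10), a level 1.80-fold lower. The antisense gene PTGES2-AS1 had 10, 27 and 22 counts against 15, 4 and 8 and was not called (log2-fold change 1.05, edgeR adjusted p = 0.0619). It was called without hypoxia library 1 (1.32, edgeR adjusted p = 0.0355) or without normoxia library 1 (1.47, 0.0424).

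PTGES3, better known as p23, a co-chaperone of HSP90 that also has cytosolic PGE synthase activity, fell too. Hypoxia libraries 1 to 3 held 9808, 10677 and 10207 counts and normoxia libraries 1 to 3 held 19042, 14849 and 13792. In CPM they were 321, 287 and 315 against 512, 519 and 466. Normoxia library 3 was the lowest of its group and still far above every hypoxia library. The log2-fold change was -0.70 (SE 0.06, edgeR adjusted p = 5.96e-09), a level 1.62-fold lower. PTGES3L, a related gene, had at most 9 counts in any library and was not tested, and PTGES3L-AARSD1 had at most 12.

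Transcripts of the HSP90 machinery, with which p23 works, were mostly called lower. Of 14 tested partners 13 fell and 1 rose, where 38.5% of all genes tested were called lower and 39.2% higher, with a median log2-fold change of -0.85 against 0.02 over all genes tested. The immunophilin FKBP4 (-1.31, SE 0.08), the HSP90 activator AHSA1 (-1.30, SE 0.07) and the constitutive HSP70 protein HSPA8 (-1.30, SE 0.07) changed most. The inducible HSP90AA1 went from 2059 ± 96.3 to 871 ± 39.4 CPM (-1.24), and the constitutive HSP90AB1 was lower by less (-0.46, SE 0.05). The HSP40 gene DNAJB1 was the one that rose (0.35, SE 0.05).

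Against PTGES2, PTGES gained weight. The ratio of their FPKM was 0.229, 0.219 and 0.290 in the normoxia libraries and 0.496, 0.532 and 0.510 in the hypoxia libraries, a difference of 1.07 on the log2 scale without overlap (exact two-sided permutation, p = 0.1, the smallest possible). PTGES2 itself had a log2-fold change of -0.85 and PTGES one of 0.22. PTGES2 stayed the more abundant transcript per length in every library.

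Synthases of the other prostanoids were lower or not called. Of 5 tested, 3 fell and none rose, so 60% were called against 77.8% of all genes tested, and the median log2-fold change was -0.39. Carbonyl reductase CBR1, which can turn PGE2 into PGF2α, went from 127 ± 4.88 to 59.5 ± 3.52 CPM (log2-fold change -1.09, SE 0.06). The aldose reductase AKR1B1, which also has PGF synthase activity, went from 1165 ± 65.2 to 892 ± 74.8 CPM (-0.39). PRXL2B, a further PGF synthase, was lower by less (log2-fold change -0.19, edgeR adjusted p = 0.0102), and the filter of at least 10 counts in every library gave -0.11 and no call (edgeR adjusted p = 0.102). Prostaglandin F synthase AKR1C3 measured 4.36 ± 0.574 and 4.30 ± 0.389 CPM and was not called.

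The PGE2 receptors that raise cyclic AMP were scarce at the RNA level. PTGER4 had 30, 22 and 24 counts under hypoxia and 83, 33 and 51 under normoxia. Its CPM were 0.983, 0.591 and 0.740 against 2.23, 1.15 and 1.72. The conditions did not overlap, though the lowest normoxia library lay near the highest hypoxia library. The fit gave a log2-fold change of -1.16 (SE 0.34, edgeR adjusted p = 0.00491), a level 2.24-fold lower, and leaving out 1 library at a time gave -1.38 to -0.92.

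PTGER2 had 3, 9 and 6 counts under hypoxia and 1, 1 and 2 under normoxia and did not pass the filter on low counts. Each hypoxia library exceeded each normoxia library, at levels of at most 0.242 CPM. Genes too scarce to be tested took, as a whole, a larger share of the counts under hypoxia. The ratio of the summed counts, 18 against 4, was 4.29 with an exact 95% interval from 1.41 to 17.4 that covers counting error only. Fitted without the filter, the log2-fold change was 1.93 (SE 1.14, edgeR adjusted p = 0.146). In that fit, which allows for variation beyond counting error, a difference was not detectable at this depth. The ratio of PTGER4 to PTGER2 in FPKM was 49.2, 19.6 and 15.1 under normoxia and 5.93, 1.45 and 2.37 under hypoxia (exact permutation test, p = 0.1, the smallest possible). This ratio rests on 22 counts of PTGER2 in all.

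Other prostanoid receptors were close to absent from the counts. PTGER1, PTGER3, PTGIR and PTGDR2 had at most 8 counts in any library and were not tested, and the thromboxane receptor TBXA2R, at 0.616 ± 0.105 and 0.447 ± 0.0982 CPM, was not called. PTGFRN, a membrane protein known as a regulator of the PGF2α receptor, was lower, at 39.4 ± 2.25 CPM against 50.6 ± 2.06 (log2-fold change -0.36, edgeR adjusted p = 7.05e-05).

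Genes that relay cyclic AMP moved in both directions. Of 21 tested, 7 rose, 11 fell and 3 were not called, with a median log2-fold change of -0.18. The 85.7% called lie near the 77.8% of all genes tested. GNAS, the stimulatory G protein that couples EP2 and EP4 to adenylyl cyclase, rose from 762 ± 43.3 to 1084 ± 26.0 CPM (0.51, SE 0.05). The cyclic AMP sensor RAPGEF3 (EPAC1) rose by 1.56, the kinase subunit PRKAR2B by 1.15 and the adenylyl cyclase ADCY6 by 0.73. Adenylyl cyclases ADCY1 (-1.25) and ADCY3 (-1.12) and the kinase subunit PRKAR2A (-1.01) were lower. The transcription factor CREB1 rose by 0.57 (SE 0.07).

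Genes known to respond to cyclic AMP were also split. Of 15 listed, 11 were tested, and 5 rose, 3 fell and 3 were not called, with a median of 0.47. The 72.7% called again lie near the background of 77.8%. FOS, an immediate early gene, measured 14.5, 27.5 and 25.6 CPM under hypoxia and 1.88, 1.92 and 1.99 under normoxia, a log2-fold change of 3.55 (SE 0.21). Hypoxia library 1 had the lowest FOS of its group, as it had for both cyclooxygenases. The same library was lowest also for the low-oxygen genes CA9, VEGFA and NDRG1, though not for the glycolytic LDHA and PGK1. The phosphatase DUSP1 rose by 2.15 and the clock gene PER1 by 1.40. The growth factor AREG, a known target of PGE2 signalling, was lower, at 10.2, 10.5 and 8.63 CPM against 35.8, 37.9 and 34.3 (-1.88, SE 0.09), and the cyclic AMP repressor gene CREM was lower by -0.84. RGS2, an inhibitor of G proteins, was called lower (-0.67, edgeR adjusted p = 0.0391). Its call was lost without hypoxia library 1 (adjusted p = 0.0962), hypoxia library 3 (0.142), normoxia library 2 (0.0522) or normoxia library 3 (0.126), all by edgeR. These genes respond to many other signals.

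HPGD, which inactivates PGE2, was barely counted in either condition. It had 6, 5 and 10 counts under hypoxia and 8, 6 and 7 under normoxia. The libraries overlapped and no level exceeded 0.308 CPM. The ratio of the summed counts, 21 against 21, was 0.952 after scaling, with an exact 95% interval from 0.495 to 1.83 for counting error only. HPGD was not tested, and a change within that interval would not be detectable at this depth. PTGS2 exceeded HPGD per length by 88.6, 182 and 71.7 times under hypoxia and by 60.6, 68.3 and 61.2 times under normoxia (exact permutation test, p = 0.1, the smallest possible).

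Of 5 tested genes for transport or later breakdown of prostaglandins, 1 rose, 3 fell and 1 was not called (80% called, against 77.8% of all genes tested), with a median of -0.22. Prostaglandin reductase PTGR2, which acts after HPGD, went from 7.24 ± 0.882 to 18.0 ± 0.271 CPM (log2-fold change 1.32, SE 0.11). Its relative PTGR1, at 38.8 ± 4.22 and 39.3 ± 2.77 CPM, was not called. Carbonyl reductase CBR3 was lower by -1.57 (SE 0.11) and the reductase ZADH2 by -0.45 (SE 0.09). The exporter ABCC4 (MRP4), which carries PGE2 out of cells, was called lower at -0.22 (edgeR adjusted p = 0.0235). That call was lost without hypoxia library 3 (adjusted p = 0.107) and without normoxia library 1 (0.124), and with the filter of 10 counts per library (-0.15, 0.126), all by edgeR.

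**Figure D3:**
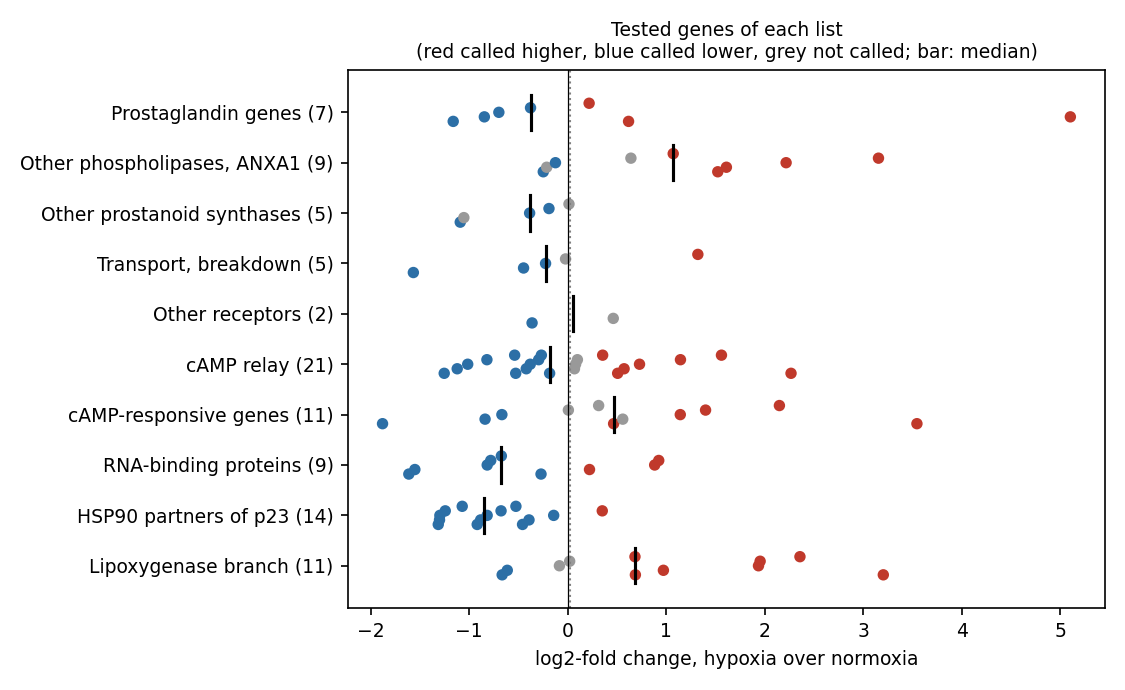
log2-fold change of each tested gene in the prostaglandin genes and 9 related lists, with the number tested in brackets and a black bar for the median. The lists of HSP90 partners (-0.85) and RNA-binding proteins (-0.67) have the lowest medians, the other phospholipases with ANXA1 (1.07) and the lipoxygenase branch (0.69) the highest, and the dotted line is the median of all tested genes.

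Per length, the 9 transcripts spanned a wide range, and their order was described from FPKM (mean ± SD, n = 3). PTGES3 led with 66.1 ± 3.14 under hypoxia and 104 ± 5.70 under normoxia, followed by PTGES2 with 38.6 ± 0.675 and 67.1 ± 1.52 and by PTGES with 19.8 ± 0.525 and 16.5 ± 2.19. PTGS2 had 5.01 ± 0.888 and 3.17 ± 0.150 and PLA2G4A 2.31 ± 0.103 and 2.91 ± 0.228. Under normoxia PTGS2 and PLA2G4A overlapped, PTGS2 ranging from 3.00 to 3.30 and PLA2G4A from 2.67 to 3.12, so neither leads there.

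PTGS1 changed its place. It stood at 0.0783 ± 0.0223 FPKM under normoxia, below PTGER4 at 0.405 ± 0.134, and at 2.74 ± 0.463 under hypoxia, where its range of 2.31 to 3.23 overlapped that of PLA2G4A. HPGD stood at 0.0498 ± 0.0201 under hypoxia and 0.0501 ± 0.00361 under normoxia, and PTGER2 at 0.0725 ± 0.0307 and 0.0173 ± 0.00867. HPGD and PTGER2 overlapped under hypoxia, below PTGER4 at 0.189 ± 0.0470, and under normoxia PTGER2 was the lowest of the 9. With GENCODE lengths PTGS1 came to 4.59 ± 0.775 and PTGS2 to 4.29 ± 0.760 under hypoxia, and their ranges overlapped. The order of the 3 synthases was the same with both lengths.

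**Figure D4:**
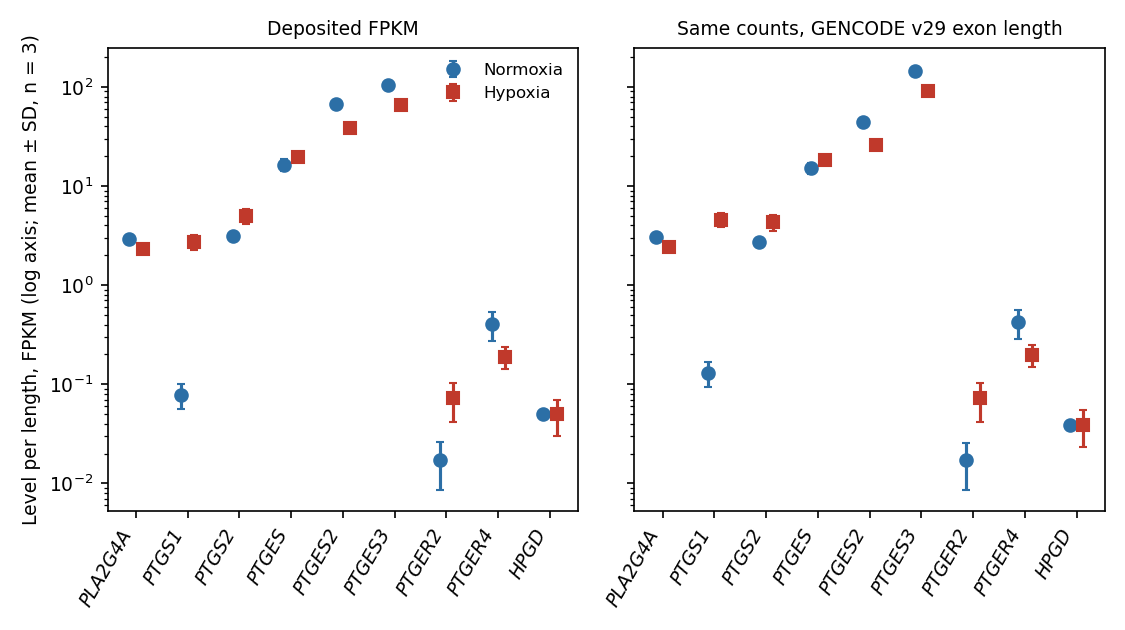
Level per length of the 9 genes in FPKM on a log axis, as mean ± SD of 3 libraries per condition, from the deposited FPKM (left) and from the same counts with GENCODE v29 exon lengths (right). PTGS1 under hypoxia lies below PTGS2 on the left (2.74 against 5.01) and level with it on the right (4.59 against 4.29).

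The deposited FPKM gave the same directions. For the prostaglandin genes they are the deposited counts scaled by the library total and a fixed length, so this agreement is not independent evidence. By limma on log2(FPKM + 1), over the 10976 genes whose mean FPKM was 1 or more, all 6 prostaglandin genes that passed were called, as were 80.9% of all genes tested on this scale. The differences were 1.79 for PTGS1 (SE 0.10, limma adjusted p = 5.44e-08), 0.52 for PTGS2, 0.26 for PTGES, -0.78 for PTGES2, -0.64 for PTGES3 and -0.24 for PLA2G4A. The added 1 shrinks the changes of low transcripts, PTGS1 most of all.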

How the data were processed

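The authors deposited whole-number read counts per gene, not normalized, and FPKM of the same 21776 genes. The aligner, counting tool and use of strand are not given in the sources used here. The submitters' processing notes list GRCm38 and mm10, which are mouse builds, although gene symbols and Entrez numbers are human, and a legend of the study names SCC9 where the labels name SCC25. Every sample column was used (0 left out).

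The test of counts was that of edgeR 4.0.16, run in R 4.3.3 (quasi-likelihood F test, condition as the only term, TMM, filterByExpr, Benjamini-Hochberg adjustment over 14255 genes, calls under 0.05). CPM are counts relative to the TMM-scaled library total. log2(FPKM + 1) was tested with limma 3.58.1 where mean FPKM was 1 or more. Exact permutation tests were two-sided. On simulated counts of 14231 genes edgeR found 117 of 120 log2-fold changes of 1 or more and 60 of 80 changes of 0.5, with 4.84% of calls false. The simulation changed only well-counted genes, left all others unchanged and gave every gene the same dispersion. Those shares need not hold in the data, where 77.8% of the genes tested were called. Totals of 29637189 to 37278703 counts leave genes of a few counts untested. Replicates differed by more than sampling noise (chi-square per gene 5.11 to 11.5). Same-numbered libraries did not deviate together (r = 0.02, -0.07 and 0.001), so the numbers were not taken as pairs.

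The members and lists were chosen with earlier results of these data known. Named were all members, up to 3 called genes per direction of each list with a mean log2 CPM of at least 0, antisense and close copies, CA9, VEGFA and NDRG1, the most abundant marker and those at 0 of each marker list, and the 5 genes most like PTGS1 and PTGS2. Other genes (KRT5, HSP90AA1, HSP90AB1, GNAS, CREB1, AKR1C3, PTGR1, ELAVL1 and scarce genes) were named after their values were seen. Alternatives were DESeq2 1.42.0 (Wald test, and its size factors in edgeR), other filters, pseudocounts and thresholds, a replicate block, each library left out, and, added after the data were seen, GENCODE v29 gene lengths. Promoters came from RefSeq and matched all 9 genes.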

Additional observations from a re-analysis of the deposited data

How the results depend on the processing

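Under settings other than leaving out a library, 87 values were recomputed, covering the prostaglandin genes, counts of calls and ratios, and 81 were counted as unchanged. For tested genes this meant the same direction and side of the threshold. For counts of calls it meant a change within a set factor, and for ratios a shift smaller than the SD between libraries. Of the others, 1 lost its call and 5 moved beyond those margins. Where calls also had to exceed 1 in log2-fold change, 4338 genes were called, and 1 prostaglandin gene was higher and 1 lower. PTGES was not called in FPKM without a filter (0.26, limma adjusted p = 0.0534). With 1 FPKM added before the log, which by construction shrinks ratios of low transcripts, the log2 ratio difference was -1.27 for PTGS2 to PTGS1 and -0.31 for PTGER4 to PTGER2.

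Leaving out 1 library at a time, 10669 to 11390 genes were called, 2 to 3 prostaglandin genes higher and 3 to 4 lower. The log2-fold change ranged from 0.15 to 0.31 for PTGES (4 of 6 fits without a call) and from -0.46 to -0.32 for PLA2G4A (1 of 6). Numbers of replicates do not pair the libraries. The replicate block gave 10875 calls against 11090 and changed no call of a prostaglandin gene, with 5.09 for PTGS1 and 0.60 for PTGS2. Among the other named genes, the block ended the calls of ANXA1 (-0.12, adjusted p = 0.0913), RGS2 (-0.69, 0.054), GGT1 (0.66, 0.0701) and ZFP36 (0.22, 0.0624), all by edgeR.

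Of 64 other named genes, 300 of 316 values kept their call under other settings and 353 of 384 with a library left out. Reversed signs were seen in 3 genes that were not called. MRRF gave 0.0085 under the filter of 10 counts per library. AKR1C3 gave -0.027 without a filter, from -0.097 to 0.096 with a library left out (-0.097 without hypoxia library 1 and -0.062 without normoxia library 2), and PTGR1 gave 0.057 under that filter and from -0.11 to 0.047 with a library left out (0.047 without hypoxia library 2 and 0.0078 without normoxia library 2). The filter of 10 counts per library also raised the values of called genes, from 5.10 to 5.18 for PTGS1 and from -0.85 to -0.77 for PTGES2. Without a filter these were lower, at 5.06 and -0.89. The cause of the reversed signs was not tested. Depth limits PTGER2 and HPGD, at no more than 10 counts a library, and PTGER4 and PACERR.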

Other observations

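Genes of the lipoxygenase branch, the other main route from arachidonic acid, moved in both directions. Of 19 listed, 14 were found among the counted genes (ALOX5, ALOX12, CYSLTR1, CYSLTR2 and CYP4F22 were not) and 11 were tested. Of these, 7 rose, 2 fell and 2 were not called, with a median log2-fold change of 0.69 against 0.02 over all genes, and 77.8% of all genes tested were called. LTA4H, which makes leukotriene B4, measured 218, 212 and 216 CPM under hypoxia and 132, 131 and 137 under normoxia (0.69, SE 0.05). The epidermal lipoxygenase ALOX12B had 55, 71 and 58 counts against 16, 13 and 5 (2.36, SE 0.37), while its partner in the skin barrier, ALOXE3, was lower (-0.61, SE 0.15), as was the hydroxylase CYP4F11 (-0.66, SE 0.13). GGT1, which processes leukotriene C4, was called higher (0.68, edgeR adjusted p = 0.0449), and the call was lost when any single library other than hypoxia library 2 was left out (edgeR adjusted p from 0.0691 to 0.199), in edgeR without a filter (0.0619) and by the DESeq2 Wald test (0.0554).

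Transcripts of proteins known to bind PTGS2 mRNA and set its stability changed in both directions. Of 9 tested, 3 rose and 6 fell, where 77.8% of all genes tested were called, with a median of -0.67. The decay factor ZFP36L1 went from 266 ± 9.02 to 505 ± 30.4 CPM (0.93) and the translational repressor TIA1 from 49.8 ± 1.42 to 91.9 ± 5.82 CPM (0.88). The decay factor ZFP36 was called higher at 0.22 (edgeR adjusted p = 0.0455), and the call was lost without hypoxia library 2 (0.173), hypoxia library 3 (0.143), normoxia library 2 (0.135) or normoxia library 3 (0.127), without a filter (0.116), all by edgeR, and by the DESeq2 Wald test (0.0552). RBM3, a cold-inducible protein, was lower at 98 to 107 CPM against 291 to 330 (-1.61, SE 0.06), ZFP36L2 at -1.55, HNRNPD (AUF1) at -0.82 and the stabilising factor ELAVL1 (HuR) at -0.78.

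Lists taken from the annotations in the deposited table were chosen after values were seen, and their counts are a description beside the 77.8% of all genes tested that were called. Of 31 tested genes of the KEGG arachidonic acid pathway 17 were higher and 9 lower, with a median of 0.64. Of 12 tested genes of the GO term for prostaglandin biosynthesis 5 were higher and 5 lower (median 0.01), and of 9 tested genes of the GO term for the response to PGE 4 were higher and 5 lower (median -0.26).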
